A study of Caenorhabditis elegans with 9 samples.

Results

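The genes *vit-1* to *vit-6* encode the vitellogenins, the yolk proteins of *C. elegans*, and their RNA was followed in 9 libraries of L4 larvae that overexpressed, lacked or normally expressed the transcription factor ATF-4. The 6 genes were taken by name and matched to gene identifiers, and all 6 were among the 46748 genes of the deposited RPKM values, a read density per exon length and sequencing depth. Of these, *vit-1*, *vit-2*, *vit-3* and *vit-6* were also among the 14218 genes of the centred and scaled values and among the 11287 genes that were tested. RNA of *vit-1* and *vit-6* was lower in ATF-4OE than in WT animals, by log2 fold changes of -2.20 and -4.24, while *vit-2* and *vit-3* did not pass the test. Neither call held with the replicate, as numbered with these genotype names, as a block (limma's adjusted p = 0.132 for *vit-1* and 0.117 for *vit-6*) or when any 1 of 5 libraries was left out. With *atf-4(tm4397)* replicates 2 and 3 exchanged, as a further sheet numbers them, both held as a block (limma's adjusted p = 0.0340 and 0.0139). Within WT and within *atf-4(tm4397)* animals the levels of single libraries spanned up to 16.2-fold for *vit-1* and up to 133-fold for *vit-6*, and the libraries with much vitellogenin RNA were also those with much RNA of adult cuticle collagens.

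Vitellogenins are large lipid-binding proteins related to the apolipoprotein B of mammals. In *C. elegans* the intestine of hermaphrodites makes them, from about the time of the last moult on, and releases them into the body cavity, from which oocytes take them up through the receptor RME-2. The genes *vit-1* to *vit-5* encode YP170 proteins, closely alike for *vit-1* and *vit-2* and nearly identical for *vit-3*, *vit-4* and *vit-5*. From *vit-6* comes a precursor that is cut into YP115 and YP88. Their transcription is known to be driven in the intestine by GATA factors and by UNC-62 with CEH-60, to be held back in males by MAB-3, and to be timed by the heterochronic genes that set larval stages.

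ATF-4OE animals carried the integrated transgene *ldIs119*, in which the *atf-4* promoter drives genomic *atf-4* fused to GFP, together with the *rol-6(su1006)* marker, a dominant allele of a cuticle collagen gene that makes animals roll. The line comes from a single transgenic array, so its effects cannot be told apart from those of the marker or the insertion site. The second group was the deletion mutant *atf-4(tm4397)*, strain LD1325, and WT was strain N2. Each group had 3 replicates of about 20000 whole animals kept at 20 °C on OP50 bacteria, and the genotypes of a replicate grew side by side. In whole animals, fewer cells that make an RNA and less RNA per cell cannot be told apart. The level of a gene is given in parts per 1000000 (ppm) of a library's RPKM total, which is per exon length, so that levels of different genes can be compared.

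Depth, read from the steps between RPKM values, was 23.8 to 35.1 M reads per library. The RPKM and the centred and scaled sheets hold the same 9 libraries, but 6 of the 9 carry another genotype in the RPKM sheet. The genotype names of the centred and scaled sheet are used throughout, and all fold changes rest on them. By these names, *atf-4* stood at 4184 to 6845 ppm in ATF-4OE, 3.69 to 9.31 ppm in *atf-4(tm4397)* and 168 to 215 ppm in WT libraries. *rol-6* stood at 3019 to 4448 ppm in ATF-4OE, 655 to 1379 ppm in *atf-4(tm4397)* and 572 to 962 ppm in WT libraries. *atf-4(tm4397)* replicates 2 and 3 carry each other's number in a further sheet, which leaves their genotype as it is but not their partners of the same growth.

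The 6 genes lie on 2 chromosomes of the WBcel235 build. *vit-1* (WBGene00006925) is at chrX:7727889-7733168 on the plus strand, and *vit-2* (WBGene00006926) at chrX:5101042-5106169 on the plus strand. *vit-5* (WBGene00006929) is at chrX:3403471-3408603 on the plus strand, *vit-4* (WBGene00006928) at chrX:3558769-3563965 and *vit-3* (WBGene00006927) at chrX:3567355-3572549, both on the minus strand. The last pair are neighbours, 3389 bp apart with no annotated gene between them. *vit-6* (WBGene00006930) is at chrIV:8261157-8266459 on the plus strand. All are protein coding genes of 5 or 6 exons, with coding lengths of 4809 to 4953 nucleotides for proteins of 1602 to 1650 residues. Reads of 50 bp can match more than 1 of *vit-3*, *vit-4* and *vit-5*, and in part *vit-1* and *vit-2*. How such reads were counted is not given in the sources used here, so the split within these groups is uncertain. On the opposite strand, *vit-2* overlaps the end of the coding gene *C42D8.9*, and *vit-3* and *vit-4* each overlap a noncoding RNA gene.

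*vit-6*, the precursor of YP115 and YP88, gave the most vitellogenin RNA in all 3 WT libraries. It stood at 1.15, 1.70 and 3.80 ppm in ATF-4OE replicates 1, 2 and 3, at 41.8, 131 and 0.990 ppm in the *atf-4(tm4397)* replicates, and at 81.3, 9.02 and 226 ppm in the WT replicates. The ATF-4OE libraries were all low and lay below those of WT without overlap, as they did for 23% of the genes tested, whereas the mutant group held both the second highest and the lowest library of all 9. *vit-1* stood at 1.39, 2.14 and 1.87 ppm in ATF-4OE and at 12.0, 23.3 and 1.44 ppm in *atf-4(tm4397)*. In WT it stood at 19.9, 3.39 and 21.8 ppm. Again ATF-4OE lay below every WT library, and *atf-4(tm4397)* replicate 3 lay among the ATF-4OE libraries.

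*vit-2* stood at 0.898, 1.96 and 3.91 ppm in ATF-4OE and at 11.06, 40.8 and 0.513 ppm in *atf-4(tm4397)*. In WT it stood at 15.8, 2.91 and 83.5 ppm. Here ATF-4OE replicate 3 was above WT replicate 2, so the groups overlapped. The genes *vit-3*, *vit-4* and *vit-5* were scarce in most libraries. *vit-3* stood at 0.0230, 0.0538 and 0.103 ppm in ATF-4OE, at 0.0400, 4.19 and 0 ppm in *atf-4(tm4397)*, and at 1.25, 0.0107 and 11.4 ppm in WT. It was at 1 ppm or more only in *atf-4(tm4397)* replicate 2 and in WT replicates 1 and 3.

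*vit-4* stood at 0.00766, 0 and 0.00942 ppm in ATF-4OE, at 0.03001, 1.23 and 0.0319 ppm in *atf-4(tm4397)*, and at 0.143, 0.0214 and 4.14 ppm in WT. Since 1 read of *vit-4* is worth about 0.00991 ppm in the median library, these are about 1, 0 and 1 reads in ATF-4OE, about 3, 134 and 3 in *atf-4(tm4397)*, and about 15, 2 and 416 in WT. ATF-4OE was thus below every WT library for *vit-4* as well, but by as little as 1 read against 2. *vit-5* stood at 0, 0 and 0.0565 ppm in ATF-4OE, at 0.03003, 0.555 and 0 ppm in *atf-4(tm4397)*, and at 0.124, 0 and 5.72 ppm in WT. Its 4 libraries at 0 allow levels of up to 0.0231 to 0.0325 ppm (3 reads), and the library of *vit-3* at 0 up to 0.0317 ppm. These limits cover counting error only. Apart from WT replicates 1 and 3 and *atf-4(tm4397)* replicate 2, no library held more than about 11 reads of *vit-3*, *vit-4* or *vit-5*. In the plot of levels per library, the same 3 libraries stand out in all of the panels for *vit-3*, *vit-4* and *vit-5*.

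**Figure D1:**
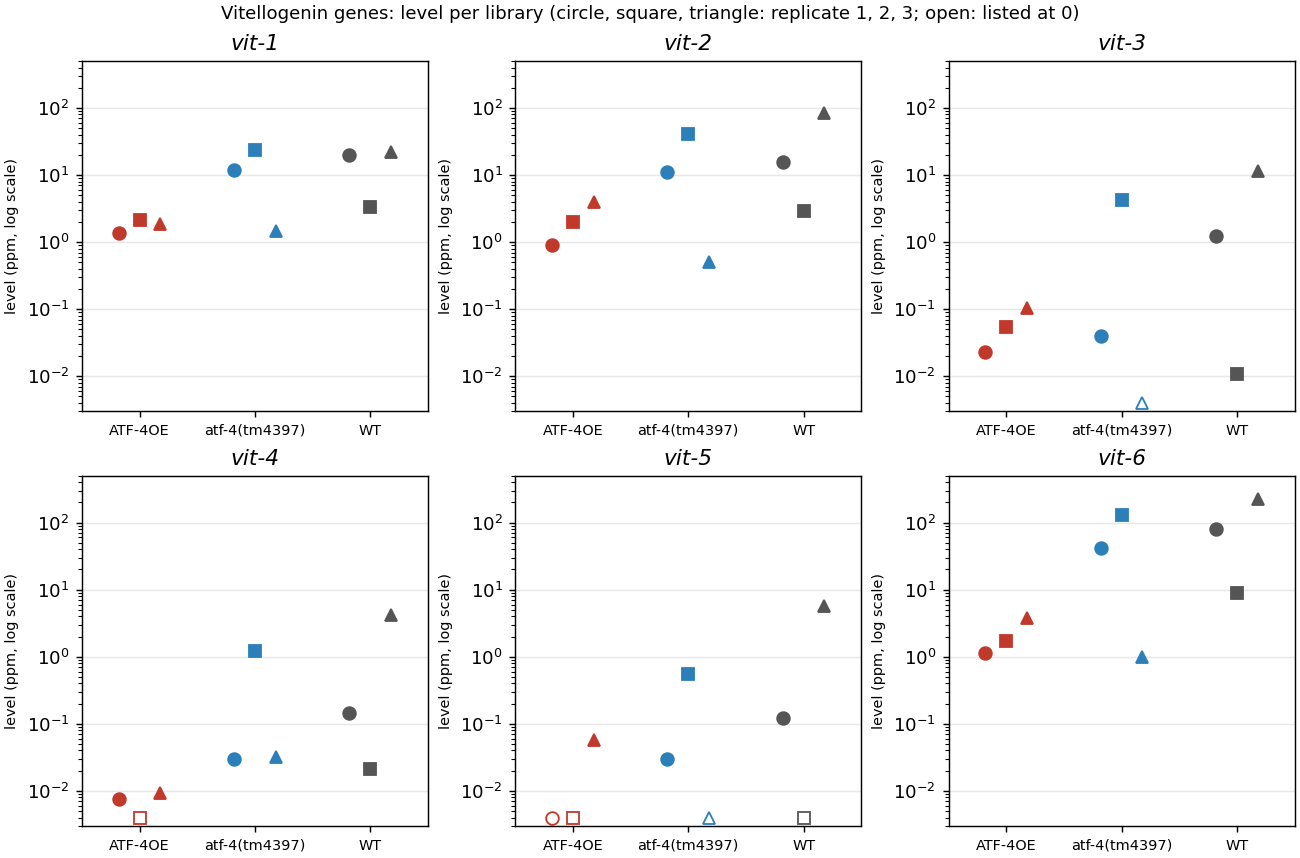
Level of each vitellogenin gene (ppm, log axis) in the 3 ATF-4OE, 3 *atf-4(tm4397)* and 3 WT libraries, with 1 symbol per library and open symbols at the lower edge for libraries listed at 0. ATF-4OE lies below all WT libraries for *vit-1* and *vit-6* and overlaps them for *vit-2*, *vit-3* and *vit-5*, and *atf-4(tm4397)* spans from 0.990 to 131 ppm for *vit-6*.

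The comparison of ATF-4OE with WT asks what extra ATF-4 does under unstressed conditions. *vit-6* averaged 2.21 ± 1.40 ppm in ATF-4OE and 105 ± 111 ppm in WT libraries (SD, n = 3 each). Its log2 fold change was -4.24 (SE 1.504, 95% interval -7.64 to -0.84), and limma gave an adjusted p of 0.0643 against a threshold of 0.1. *vit-1* averaged 1.80 ± 0.38 ppm in ATF-4OE and 15.04 ± 10.1 ppm in WT (SD, n = 3 each), with a log2 fold change of -2.20 (SE 0.84, limma's adjusted p = 0.0821). Fold changes are on the log2(level + 1) scale, which understates the change of genes near 1 ppm. Both genes passed and also fell beyond a log2 fold change of 1 in size, as did 2.96% of the genes tested. Of the genes tested, 36.5% passed this comparison in either direction. Those that passed as lower in ATF-4OE made up 14.4% of the genes tested.

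*vit-2* averaged 2.26 ± 1.53 ppm in ATF-4OE and 34.1 ± 43.3 ppm in WT (SD, n = 3 each). Its log2 fold change of -2.55 (SE 1.29) did not pass (limma's adjusted p = 0.172), and the 95% interval ran from -5.45 to 0.35. *vit-3* had a log2 fold change of -1.52 (SE 0.99, limma's adjusted p = 0.285), and it had entered the test only through WT replicate 3. *vit-4* and *vit-5* lie outside the tested set. In a fit to the RPKM of all genes, added after the data were seen, their log2 fold changes on the log2(RPKM + 1) scale were -0.73 and -0.83 (limma's adjusted p = 0.364 and 0.349). Both had entered that fit, which asked for an RPKM of 1 in any library, only through WT replicate 3. A gene kept only through a WT library is bound to be lower in ATF-4OE, so the direction of *vit-3*, *vit-4* and *vit-5* adds nothing to that of *vit-1* and *vit-6*. The filter bears on *vit-1*, *vit-2* and *vit-6* too. In ATF-4OE they reached at most 2.14, 3.91 and 3.80 ppm, so WT and mutant libraries alone brought them past 5 ppm. Without the filter, *vit-1* and *vit-6* had limma's adjusted p of 0.0928 and 0.0737, and *vit-2* had 0.188.

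The spread between replicates limits these calls. Leaving out any of ATF-4OE replicates 1, 2 and 3 or WT replicates 1 and 3 ended both of them. For *vit-6* the adjusted p by limma was then 0.175, 0.130, 0.111, 0.151 and 0.205 in that order, and for *vit-1* it was 0.201, 0.134, 0.163, 0.215 and 0.238. The fold changes stayed between -5.50 and -3.25 for *vit-6* and between -2.97 and -1.79 for *vit-1*, whichever of the 9 libraries was left out. With the replicate as a block by the numbers of the centred and scaled sheet, neither gene passed (limma's adjusted p = 0.117 for *vit-6* and 0.132 for *vit-1*). With *atf-4(tm4397)* replicates 2 and 3 exchanged, as the sheet of most regulated genes has them, the block gave an adjusted p by limma of 0.0139 for *vit-6*, 0.0340 for *vit-1* and 0.0405 for *vit-2*.

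WT and ATF-4OE carry the same numbers in both of these sheets, so libraries of the same number can be set against each other as the same growth. This pairing rests on the numbers. Deviations from the group means over the genes tested correlated at -0.011, -0.278 and 0.178 between the partners of replicates 1, 2 and 3. *vit-6* was at 1.15 ppm in ATF-4OE and 81.3 ppm in WT in the first growth. It was at 1.70 and 9.02 ppm in the second, and at 3.80 and 226 ppm in the third. For *vit-6* and *vit-1* the groups do not overlap, so any pairing would give ATF-4OE as lower in 3 of 3 growths. For *vit-6*, WT exceeded ATF-4OE 70.9-fold, 5.32-fold and 59.5-fold. *vit-2*, which overlapped between the groups, was lower in ATF-4OE in 3 of 3 growths, with WT 17.6-fold, 1.48-fold and 21.4-fold higher. For *vit-1*, WT was 14.3-fold, 1.59-fold and 11.7-fold higher. In each case the second growth, in which WT itself was low, showed the smallest difference.

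The comparison of *atf-4(tm4397)* with WT asks what loss of *atf-4* does. No vitellogenin gene passed it. *vit-6* averaged 58.0 ± 66.6 ppm in *atf-4(tm4397)* and 105 ± 111 ppm in WT (SD, n = 3 each), with a log2 fold change of -1.35 (SE 1.504, 95% interval -4.75 to 2.04, limma's adjusted p = 0.742). The log2 fold changes of *vit-1*, *vit-2* and *vit-3* were -0.48, -0.95 and -0.80 (limma's adjusted p = 0.846, 0.790 and 0.770). Few genes of any kind passed here, 0.0532% of those tested at the adjusted threshold and 10.4% at an unadjusted p under 0.05. For the vitellogenins the direction rested on single libraries. Without *atf-4(tm4397)* replicate 3 the fold changes of *vit-1*, *vit-2* and *vit-6* became 0.48, 0.34 and 0.40, and without WT replicate 3 that of *vit-2* became 0.17.

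Partners of the same growth depend here on which sheet numbers the mutant. By the centred and scaled sheet, *vit-6* in *atf-4(tm4397)* was 0.515, 14.6 and 0.00438 times its WT partner, which is lower in 2 of 3 growths. With replicates 2 and 3 exchanged, the ratios were 0.515, 0.110 and 0.581, lower in 3 of 3. By the same exchanged numbers *vit-2* was 0.699, 0.177 and 0.489 times WT, and *vit-1* was 0.604, 0.425 and 1.07 times WT. Even so, the block with exchanged numbers left all of them short of the threshold (limma's adjusted p = 0.585 for *vit-6*, 0.637 for *vit-2* and 0.777 for *vit-1*).

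ATF-4OE and *atf-4(tm4397)* were also compared directly, a comparison that 33.6% of the genes tested passed. *vit-6* had a log2 fold change of -2.89 (SE 1.504, limma's adjusted p = 0.192), *vit-1* one of -1.72 (SE 0.84, limma's adjusted p = 0.167), *vit-2* -1.60 (SE 1.29, limma's adjusted p = 0.403) and *vit-3* -0.73 (SE 0.99, limma's adjusted p = 0.628). None passed. Without *atf-4(tm4397)* replicate 3 the log2 fold changes of *vit-6*, *vit-1* and *vit-2* were -4.64, -2.68 and -2.89, with limma's adjusted p of 0.0212, 0.0212 and 0.0971, and these 3 passed. *vit-3* did not pass without it either (log2 fold change -1.13, limma's adjusted p = 0.483). With the block by exchanged numbers, *vit-6* and *vit-1* passed as well (limma's adjusted p = 0.0564 and 0.0817). Because these 2 comparisons of ATF-4OE share its libraries, they are not independent of each other.

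**Figure D2:**
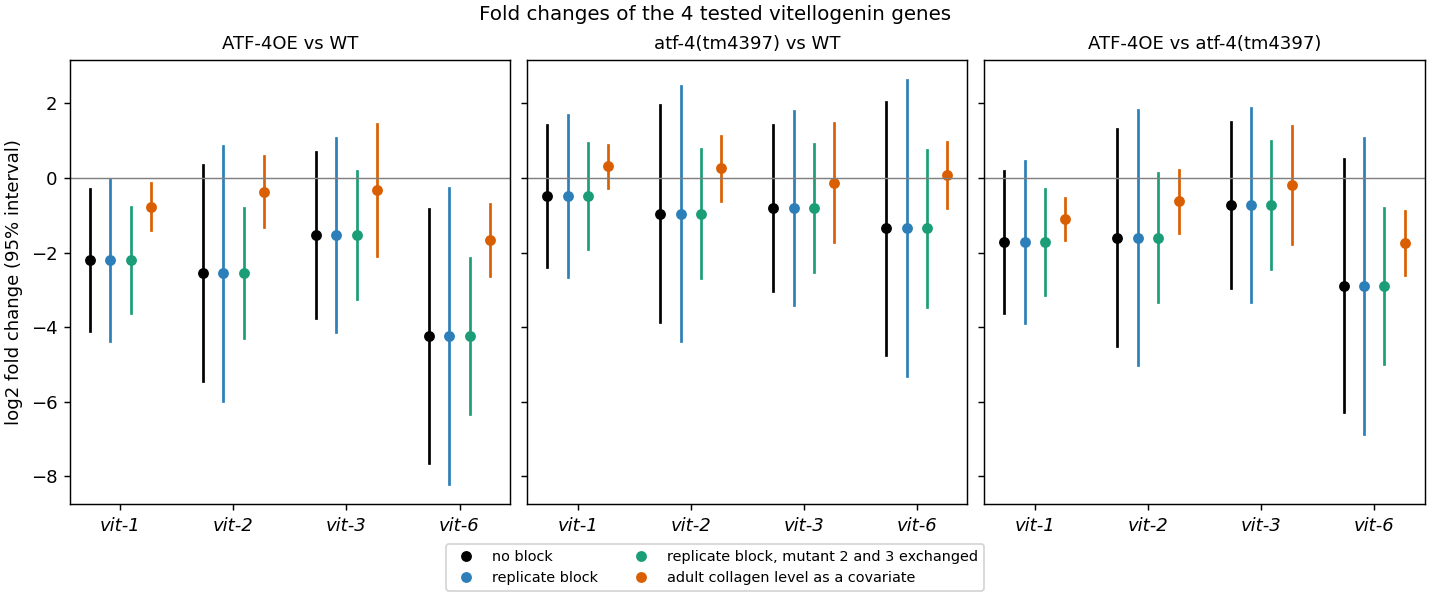
Log2 fold change with its 95% interval for *vit-1*, *vit-2*, *vit-3* and *vit-6* in the 3 comparisons, under the fit without a block, with the replicate as a block under either numbering of *atf-4(tm4397)*, and with the adult collagen level as a covariate. The intervals of *vit-6* and *vit-1* in ATF-4OE vs WT lie below 0 in all 4 fits, and most of the others cross it.

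The libraries differed widely in how much vitellogenin RNA they held in all. The 6 genes together came to 3.46, 5.85 and 9.74 ppm in ATF-4OE, to 65.004, 201 and 2.98 ppm in *atf-4(tm4397)*, and to 119, 15.3 and 353 ppm in WT replicates 1, 2 and 3. That is a 2.81-fold span within ATF-4OE, 67.7-fold within *atf-4(tm4397)* and 22.97-fold within WT. WT replicate 3 was the highest of the 9 and *atf-4(tm4397)* replicate 3 the lowest. Across the 9 libraries *vit-1* spanned 16.8-fold, *vit-2* 163-fold and *vit-6* 228-fold. The 4 tested genes varied together, with Pearson's r of their log2 levels over the 9 libraries of 0.98 for *vit-1* and *vit-6*, 0.97 for *vit-2* and *vit-6*, and 0.78 for *vit-1* and *vit-3*. These points share their library and depth, and *vit-1* and *vit-2* can share reads.

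Of 4 lists of stage markers, the adult collagens moved with the vitellogenins across the libraries, the sperm genes did so in part, and the sums of the oocyte and moulting genes did not follow the same order. Adult cuticle collagens are made for the cuticle laid down at the last moult, and 4 of 6 listed genes were measured (*bli-1* and *bli-2*, whose collagens build the struts of the adult cuticle, *col-19* and *col-63*). Summed, they came to 18.4, 119 and 91.2 ppm in ATF-4OE, to 329, 1522 and 11.3 ppm in *atf-4(tm4397)*, and to 1233, 65.1 and 1700 ppm in WT. None of the 4 passed in ATF-4OE vs WT, and their median log2 fold change was -2.94. The 4 libraries with the highest sum and the 2 with the lowest were the same, in the same order, for collagens and vitellogenins. *col-19*, the adult-specific collagen that is commonly used to time the switch, stood at 0.441, 0.878 and 0.858 ppm in ATF-4OE, 0.719, 4.87 and 0.408 ppm in *atf-4(tm4397)*, and 1.19, 1.79 and 31.5 ppm in WT.

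**Figure D3:**
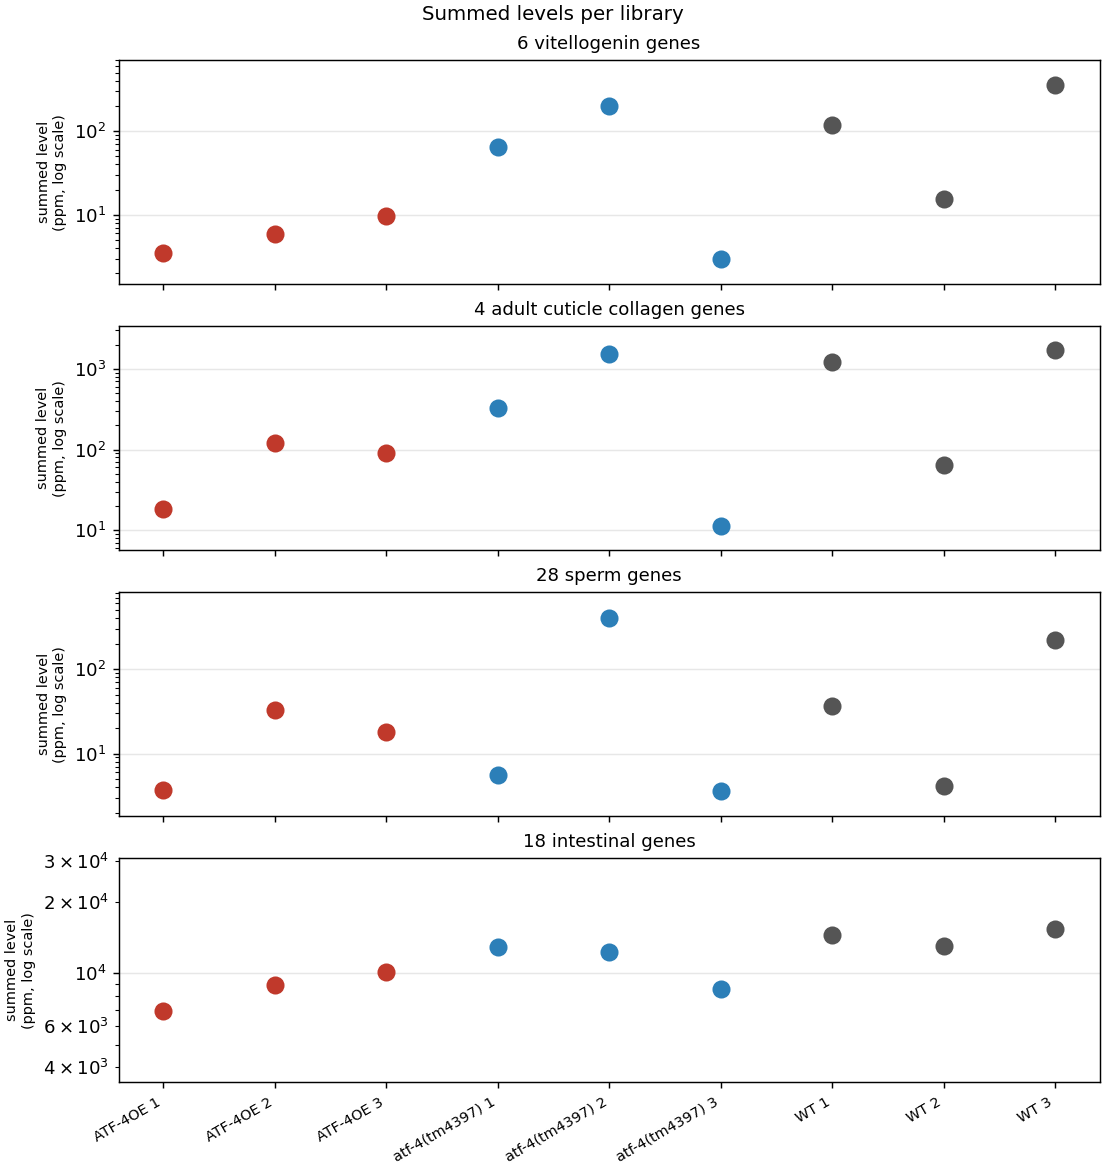
Summed level per library (ppm, log axis) of the 6 vitellogenin genes, 4 adult cuticle collagen genes, 28 sperm genes and 18 intestinal genes, with ATF-4OE at the left, then *atf-4(tm4397)*, then WT. The vitellogenin and collagen sums share their 4 highest libraries (WT replicates 3 and 1, *atf-4(tm4397)* replicates 2 and 1), while the intestinal sum varies far less.

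Sperm is made in L4 hermaphrodites, and 28 of 36 listed sperm genes, mostly of the major sperm proteins, were measured. Their sum was 3.66, 32.5 and 18.1 ppm in ATF-4OE, 5.59, 407 and 3.63 ppm in *atf-4(tm4397)*, and 36.5, 4.17 and 222 ppm in WT, with 0 of the 26 tested genes passing in ATF-4OE vs WT and a median log2 fold change of -0.81. The highest 2 libraries were again WT replicate 3 and *atf-4(tm4397)* replicate 2, the same in which *vit-2* exceeded *vit-1* most within WT and the mutant. Those with the smallest adjusted p, the sperm phosphatase gene *gsp-3* and the major sperm protein genes *msp-152*, *msp-36* and *msp-51*, had log2 fold changes of -1.27, -1.05, -1.27 and -0.78 (limma's adjusted p = 0.447, 0.473, 0.507 and 0.515), and *msp-152* was at 0 in ATF-4OE replicate 1 and in *atf-4(tm4397)* replicates 1 and 3. Genes of oocytes and eggshell, made from late L4 on, summed to 45.5, 39.9 and 44.1 ppm in ATF-4OE, 35.7, 139 and 73.99 ppm in *atf-4(tm4397)*, and 51.04, 47.0 and 69.9 ppm in WT, so that *atf-4(tm4397)* replicate 3, the poorest in vitellogenin RNA, was second highest. Single genes of the list differed. *mex-3* and *spn-4* stood at 22.2 and 11.6 ppm in *atf-4(tm4397)* replicate 3, against 8.78 and 7.68 ppm in WT replicate 3. *perm-2* and *perm-4* stood at 0.0722 and 0.181 ppm in that mutant library, against 4.98 and 9.3 ppm in WT replicate 3. Of the oocyte and eggshell genes 11 were tested and 0 passed in ATF-4OE vs WT. The smallest adjusted p were those of *mex-3*, *spn-4*, *puf-11* and *oma-1*, which encode RNA-binding proteins of the germ line, with log2 fold changes of 0.67, -0.49, -0.57 and -0.62 (limma's adjusted p = 0.103, 0.257, 0.299 and 0.324). Of 22 genes of the moulting cycle 7 rose in ATF-4OE against WT (*grh-1*, *nhr-23*, *nhr-25* and *wrt-10* among them) and 0 fell, with a median of 0.42, beside 22.1% of all genes tested as higher. The moulting genes summed to 4212, 3053 and 3747 ppm in ATF-4OE, 3904, 3868 and 5363 ppm in *atf-4(tm4397)*, and 3476, 2332 and 2606 ppm in WT, with the highest sum in *atf-4(tm4397)* replicate 3 and the second lowest in WT replicate 3, the richest in vitellogenin RNA. The lowest sum was that of WT replicate 2, the WT library poorest in vitellogenin RNA, so the order was not simply the reverse of that of the vitellogenins.

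The genotype difference was fitted again with these markers as covariates, a choice made after the data were seen. With the mean log2 level of the adult collagens in the model, *vit-6* was lower in ATF-4OE than in WT by a log2 fold change of -1.66 (SE 0.43, limma's adjusted p = 0.0257) and *vit-1* by -0.77 (SE 0.28, limma's adjusted p = 0.0820). *vit-2* was then at -0.37 (SE 0.42, limma's adjusted p = 0.591). The fold changes were smaller than without the covariate, their errors shrank with them, and *vit-6* and *vit-1* passed. The collagens themselves had a median log2 fold change of -2.94 in ATF-4OE vs WT, though none passed. Stage and genotype therefore cannot be told apart by this fit. Against *atf-4(tm4397)* the same model gave -1.74 for *vit-6* (SE 0.38, limma's adjusted p = 0.0104) and -1.09 for *vit-1* (SE 0.25, limma's adjusted p = 0.0124). Between *atf-4(tm4397)* and WT it gave 0.08 for *vit-6* (SE 0.39) and 0.31 for *vit-1* (SE 0.25), neither of which passed (limma's adjusted p = 0.951 and 0.713). With the sperm genes as the covariate, *vit-6* was at -3.27 (SE 1.03, limma's adjusted p = 0.0499) and *vit-1* at -1.68 (SE 0.61, limma's adjusted p = 0.0811) in ATF-4OE vs WT.

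The mix of vitellogenins was compared as well as their amount. With 3 against 3 libraries the permutation test of the mix cannot give a p under 0.1. No difference in the mix could thus pass at the threshold of 0.1, so the test does not decide whether the mix differed. *vit-6* made up 33.1, 29.0 and 38.98% of the sum in ATF-4OE, 64.3, 65.2 and 33.3% in *atf-4(tm4397)*, and 68.6, 58.8 and 64.1% in WT. *vit-2* made up 25.9 to 40.1% in ATF-4OE, 17.0 to 20.3% in *atf-4(tm4397)* and 13.3 to 23.7% in WT, and *vit-1* 19.2 to 40.1%, 11.6 to 48.4% and 6.19 to 22.1% in the same order. Expressed as a ratio, *vit-2* was 0.783 to 1.158 times *vit-6* in ATF-4OE, against 0.264 to 0.519 times in *atf-4(tm4397)* and 0.195 to 0.369 times in WT. The ATF-4OE libraries did not overlap those of either other genotype. The exact permutation p was 0.1 for both comparisons (two-sided), the smallest that 3 against 3 libraries can give, and 0.3 after adjustment over the 9 ratio comparisons made.

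The mutant library that was as poor in vitellogenin RNA as those of ATF-4OE had a lower ratio of *vit-2* to *vit-6* than they did. *atf-4(tm4397)* replicate 3, with a sum of 2.98 ppm, had a ratio of 0.519, and ATF-4OE replicate 1, with 3.46 ppm, had one of 0.783. The first rests on about 49 reads of *vit-2* and 96 of *vit-6* (95% limits of counting error 36.3 to 64.8 and 77.8 to 117). The second rests on about 118 and 155 reads (97.7 to 141 and 132 to 181). Whether these 2 ratios differ beyond counting error was not tested. The ratio of *vit-6* to *vit-1* behaved otherwise. It was 0.794 to 2.03 in ATF-4OE and 2.66 to 10.4 in WT, without overlap (exact permutation p = 0.1, adjusted 0.3), but 0.687 to 5.62 in *atf-4(tm4397)*, where the library poor in vitellogenin RNA was at 0.687 and thus below every ATF-4OE library. *vit-3*, *vit-4* and *vit-5* together made up 0.883 to 1.74% of the sum in ATF-4OE, 0.154 to 2.96% in *atf-4(tm4397)* and 0.209 to 6.04% in WT. The highest share was that of WT replicate 3, the richest library.

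**Figure D4:**
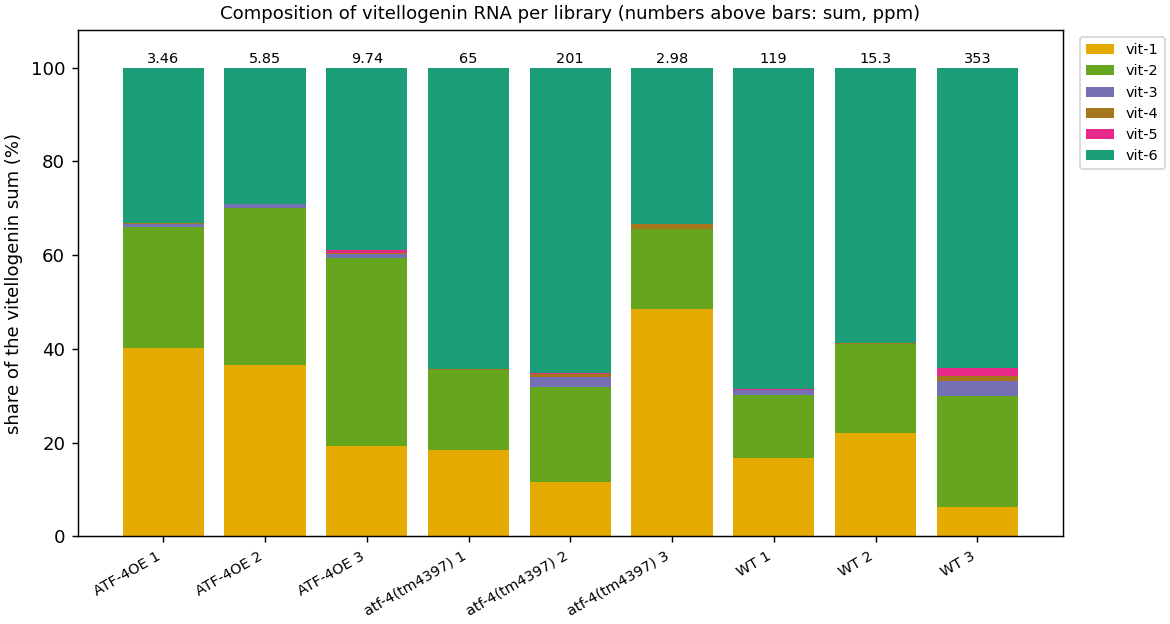
Share of each vitellogenin gene in the summed vitellogenin level (%) of the 9 libraries, ATF-4OE at the left, then *atf-4(tm4397)*, then WT, with the sum in ppm above each bar. *vit-6* makes up 29.0 to 38.98% in ATF-4OE and in *atf-4(tm4397)* replicate 3 and 58.8 to 68.6% in the other libraries.

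Of 19 genes known to act on vitellogenin transcription, 18 were tested. In ATF-4OE vs WT 4 rose and 4 fell, beside 22.1% and 14.4% of all genes. The list's median log2 fold change was 0.07. The 4 lower ones were *ceh-60*, *elt-2*, *elt-7* and *sgk-1*. *ceh-60*, whose homeodomain protein joins UNC-62 to activate vitellogenin genes, stood at 4.37, 7.15 and 6.93 ppm in ATF-4OE, 14.9, 19.1 and 6.88 ppm in *atf-4(tm4397)*, and 18.9, 13.0 and 27.5 ppm in WT. Its log2 fold change in ATF-4OE vs WT was -1.503 (limma's adjusted p = 0.0157), and its mutant and WT libraries followed the order of the vitellogenins, with *atf-4(tm4397)* replicate 3 as low as ATF-4OE. *elt-2*, the main intestinal GATA factor, averaged 27.8 ± 2.54 ppm in ATF-4OE and 49.03 ± 4.79 ppm in WT (SD, n = 3 each; log2 fold change -0.79, limma's adjusted p = 0.00561), and *elt-7*, a second GATA factor, had a log2 fold change of -0.64 (limma's adjusted p = 0.00739). *sgk-1*, a kinase of the TORC2 pathway through which food signals reach the *vit* genes, stood at 35.5, 39.9 and 45.7 ppm in ATF-4OE and at 66.1, 69.2 and 75.1 ppm in WT (log2 fold change -0.79, limma's adjusted p = 0.00193).

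The 4 higher ones, a share like that of all genes, were *lin-41*, *lin-14*, *dbl-1* and *sma-3*. *lin-41*, an RNA-binding protein of the larval programme that declines before adulthood, stood at 62.8, 34.3 and 55.5 ppm in ATF-4OE, 21.3, 17.0 and 28.6 ppm in *atf-4(tm4397)*, and 16.3, 20.4 and 11.6 ppm in WT (log2 fold change 1.59, limma's adjusted p = 0.00403). ATF-4OE lay above both other genotypes here without overlap. *lin-14*, an early larval timing factor, had a log2 fold change of 0.54 (limma's adjusted p = 0.0714). *dbl-1*, the ligand of the BMP-like pathway, and *sma-3*, its Smad, had log2 fold changes of 0.62 and 0.45 (limma's adjusted p = 0.00675 and 0.0149). *unc-62*, the partner of CEH-60, was measured at 31.8 to 43.5 ppm in ATF-4OE and 38.006 to 47.8 ppm in WT and did not pass (log2 fold change -0.19, limma's adjusted p = 0.342). Nor did *rict-1*, which acts upstream of *sgk-1* (log2 fold change -0.22, limma's adjusted p = 0.318), the heterochronic genes *lin-28*, *lin-29* and *hbl-1* (limma's adjusted p = 0.840, 0.664 and 0.215), or *mab-3*, *pqm-1* and *daf-16*. No gene of the list passed in *atf-4(tm4397)* vs WT, a comparison that only 0.0532% of all genes tested passed.

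**Figure D5:**
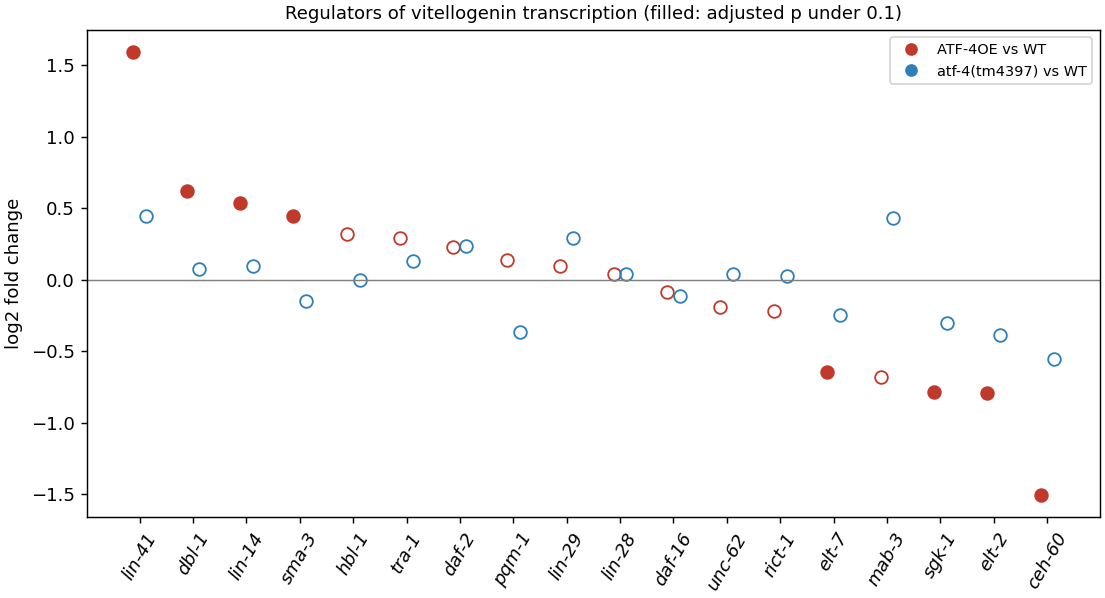
Log2 fold changes of the 18 tested regulators of vitellogenin transcription in ATF-4OE vs WT and in *atf-4(tm4397)* vs WT, filled where the adjusted p is under 0.1. In ATF-4OE *lin-41* is highest at 1.59 and *ceh-60* lowest at -1.503. No point of *atf-4(tm4397)* is filled, where 0.0532% of all genes tested passed.

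Next came the genes that load, carry and take up yolk. In ATF-4OE vs WT 2 of the 13 tested rose and 1 fell, beside 22.1% and 14.4% of all genes, and the list's median log2 fold change was 0.03. The lower one was *dsc-4*, the worm's microsomal triglyceride transfer protein, which loads lipid on vitellogenins. It stood at 85.0, 102 and 123 ppm in ATF-4OE, 159, 146 and 104 ppm in *atf-4(tm4397)*, and 198, 149 and 177 ppm in WT (log2 fold change -0.76, limma's adjusted p = 0.0182). The higher ones were *dpy-23*, an adaptor of clathrin-coated vesicles, with a log2 fold change of 0.42 (limma's adjusted p = 0.0584) and *rab-11.1*, a GTPase of recycling endosomes, with 0.22 (limma's adjusted p = 0.0765). *lrp-2*, which encodes a protein of the LDL receptor family, had a log2 fold change of 0.73 and did not pass (limma's adjusted p = 0.106). *rme-2*, the yolk receptor of oocytes, was scarce, at 0.915, 1.07 and 1.03 ppm in ATF-4OE, 0.875, 5.995 and 2.61 ppm in *atf-4(tm4397)*, and 1.75, 0.755 and 2.23 ppm in WT, and did not pass (log2 fold change -0.32, limma's adjusted p = 0.663).

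The intestine, where vitellogenins are made, was checked with 20 genes of intestinal identity, of which 18 were measured and tested, *elt-2* and *elt-7* from above among them. The lowest value of any of the 18 in any library was 3.33 ppm, for *ftn-1*, and their sum was 6929, 8915 and 10114 ppm in ATF-4OE, 12884, 12314 and 8623 ppm in *atf-4(tm4397)*, and 14579, 12990 and 15349 ppm in WT. Against WT, 12 fell in ATF-4OE and 1, the ferritin gene *ftn-1*, rose, beside 14.4% and 22.1% of all genes, with a median log2 fold change of -0.69. *pept-1*, the intestinal peptide transporter, had a log2 fold change of -1.05 (limma's adjusted p = 0.000611). *vha-6*, the V-ATPase subunit of the intestinal lumen, and *spl-1*, sphingosine phosphate lyase, had log2 fold changes of -0.79 and -0.90, *erm-1*, the ezrin-like protein of the apical surface, one of -0.51, and all 3 passed. These shifts were smaller than the -4.24 of *vit-6* and the -2.20 of *vit-1*, and their part in those results was not tested.

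Other lipid and storage proteins went both ways, and whether each was made in the intestine was not examined. In ATF-4OE vs WT 5 of the 22 tested rose, a share like the 22.1% of all genes, and 7 fell, beside 14.4% of all genes, with a median of -0.12. *far-3*, a fatty acid and retinol binding protein, stood at 213, 178 and 144 ppm in ATF-4OE, against 7.71, 5.83 and 15.6 ppm in WT (log2 fold change 4.15, limma's adjusted p = 0.000353). *lipl-5*, a lysosomal lipase, stood at 39.3, 73.8 and 56.9 ppm in ATF-4OE, against 337, 286 and 391 ppm in WT (log2 fold change -2.59, limma's adjusted p = 0.000489). *dhs-3*, a lipid droplet protein, and *fat-6*, a stearoyl-CoA desaturase, had log2 fold changes of -1.29 and -0.94, and both passed. In *atf-4(tm4397)* vs WT 0 of the 22 passed, beside 0.0532% of all genes tested.

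The genes whose levels followed the vitellogenins most closely were sought among all genes tested, by Pearson's r of log2(level + 1) with the mean of *vit-1*, *vit-2*, *vit-3* and *vit-6* over the 9 libraries. The highest 10 were *D1086.10* (r = 0.97), *B0024.13*, *F22H10.6*, *col-38*, *C01G10.7*, *E01G4.6*, *col-20*, *C04G2.10*, *col-79* and *col-71* (r = 0.96), of which the 4 *col* genes encode cuticle collagens. *D1086.10* stood at 0.0499, 3.30 and 1.47 ppm in ATF-4OE, 8.54, 54.96 and 0.0693 ppm in *atf-4(tm4397)*, and 31.5, 3.14 and 59.2 ppm in WT, thus in nearly the order of the vitellogenin sum. *col-71* spanned 24.6 to 97.0 ppm in ATF-4OE, 48.9 to 1438 ppm in *atf-4(tm4397)* and 63.3 to 1421 ppm in WT.

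The lowest 5 were *nhr-25* (r = -0.98), a nuclear receptor needed for moulting, *daf-9*, the cytochrome P450 that makes the steroid hormones dafachronic acids, *F33H2.3*, *hlh-2*, the worm's E protein, and *nas-29*, an astacin-like protease. *nhr-25* stood at 33.05, 22.1 and 27.5 ppm in ATF-4OE, 14.97, 8.91 and 26.9 ppm in *atf-4(tm4397)*, and 9.66, 20.0 and 7.03 ppm in WT, so that the libraries highest in it were the poorest in yolk protein RNA. It was higher in ATF-4OE than in WT (log2 fold change 1.21, limma's adjusted p = 0.0580), as was *daf-9* (log2 fold change 1.09, limma's adjusted p = 0.0460). Both were picked for their opposite pattern in these same libraries, where ATF-4OE was low in vitellogenin RNA. Their direction and adjusted p thus add nothing to the vitellogenin results. With 9 libraries and many genes searched, these correlations describe a likeness of pattern in these libraries.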

How the data were processed

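Poly(A) RNA of 9 samples was sequenced as single reads of 50 bp. Per the labels and methods, the authors aligned reads with STAR 2.4.0j to WBcel235 and counted them per gene with featureCounts. The authors deposited RPKM, centred and scaled values (scores), and scores of the most regulated genes, matched here for 37 of 39 genes. A summary sheet and a sheet with the authors' p-values of enriched terms were not used. Scores were shifted to a minimum of 0 and scaled to a sum of 1000000 (ppm). *vit-4* and *vit-5*, from the RPKM sheet, were put on the same scale. RPKM was matched to the scores by value (largest deviation 4.99e-07), and 2 of 9 libraries had the same sample name in both sheets. About 48 to 57% of values below 10 reads lay within 0.03 of a whole read, so count models were not used. Read numbers given as about rest on exon lengths of Ensembl release 115; 19 of 20 vitellogenin values under 20 reads lay within 0.1 of a whole read.

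Genes that reached 5 ppm in any library were fitted on log2(level + 1) with limma 3.58.1 (trend) in R 4.3.3, 9 libraries in 1 model, two-sided, Benjamini-Hochberg over all genes. A gene passed at an adjusted p under 0.1. The procedure was tested on simulated data. Same-numbered samples were grown together per the labels, so the number was also fitted as a block. Deviations of same-numbered libraries correlated at -0.68 to 0.31 (median -0.08), and at -0.48 to 0.76 (median 0.18) with *atf-4(tm4397)* 2 and 3 exchanged. Named were all vitellogenins, *atf-4* and *rol-6*, the up to 4 members of each list with the smallest adjusted p in ATF-4OE vs WT, further members given in a clause, and the 10 most and 5 least alike genes. Members and lists were chosen with earlier results of these data known. Python 3.11.15, pandas 2.3.3, numpy 2.4.6, scipy 1.17.1 and matplotlib 3.10.9 were used.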

Additional observations from a re-analysis of the deposited data

How the results depend on the processing

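In ATF-4OE vs WT, *vit-6* and *vit-1* kept their direction in every setting but the group names of the RPKM sheet, under which the log2 fold changes of *vit-1*, *vit-2*, *vit-3* and *vit-6* were 0.43, 1.83, 1.63 and 1.42 against WT and 1.86, 3.32, 2.02 and 3.80 against *atf-4(tm4397)*. These names mix the genotypes of the other sheet, and 0 genes passed in any comparison (4122, 6 and 3790 genes with the names used here). On centred and scaled values without a log, *vit-6* and *vit-1* did not pass (limma's adjusted p = 0.234 and 0.185), 2122 genes passed in ATF-4OE vs WT and 1284 in ATF-4OE vs *atf-4(tm4397)*, and *vit-1* and *vit-3* had differences of 0.010 and 0.012 (in units of the score) in *atf-4(tm4397)* vs WT; the cause was not tested. With only the groups compared in the fit, *vit-2* passed in ATF-4OE vs WT (limma's adjusted p = 0.0898) and 3 genes passed in *atf-4(tm4397)* vs WT. With weights per library, *vit-2* passed in ATF-4OE vs WT (limma's adjusted p = 0.0542), and *vit-1* and *vit-6* in ATF-4OE vs *atf-4(tm4397)* (limma's adjusted p = 0.0299 and 0.0391). Leaving out 1 library at a time, 2556 to 4543 genes passed in ATF-4OE vs WT, 3 to 128 in *atf-4(tm4397)* vs WT and 2312 to 4182 in ATF-4OE vs *atf-4(tm4397)*. Over the same 9 fits, the log2 fold changes in *atf-4(tm4397)* vs WT ran from -1.25 to 0.48 for *vit-1*, -2.05 to 0.34 for *vit-2* and -2.63 to 0.40 for *vit-6*. Over the 8 of these fits that tested it, that of *vit-3* in ATF-4OE vs *atf-4(tm4397)* ran from -1.13 to 0.055. *vit-2* passed in ATF-4OE vs WT without WT replicate 2 (limma's adjusted p = 0.0637) or *atf-4(tm4397)* replicate 3 (0.0844). With the adult collagen covariate, *vit-1*, *vit-2* and *vit-6* stood at 0.31, 0.26 and 0.078 in *atf-4(tm4397)* vs WT. The replicate block changed no call of a vitellogenin gene other than those given with the results. Depth limits *vit-3*, *vit-4* and *vit-5*, which had under 20 reads in most libraries.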
